A study of Mus musculus with 33 samples.

Results

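The 43 genes described here encode the machinery that copies chromosomal DNA in S phase, and their RNA was followed through the compartments of the mouse thymus. They were taken by gene symbol from a fixed list in 9 groups by role: origin recognition and licensing, the MCM helicase, helicase activation, the sliding clamp and its loader, polymerases and primase, single-strand binding with Okazaki fragment joining, deoxynucleotide supply, G1/S cyclins, and maintenance of DNA methylation. All 43 symbols had a probe set on the array, and all 43 were among the 13463 genes tested, of 18193 gene symbols in the table. They had 93 probe sets, of which 86 passed the filter on low signal. Every sample came from 4 to 6 week old male C57BL6 mice with no treatment and no engineered allele named, hybridised on 33 Affymetrix arrays. Microdissection gave whole cortex (7 arrays), whole medulla (7), and 3 cortical subregions, namely subcapsular, central and perimedullary cortex (3 each). Cell sorting gave cortical thymocytes gated as CD3-/lo, CD45+ and either CD90+ or CD117+ (5 arrays), and medullary thymocytes gated as CD3hi CD45+ (5). Replicates are labelled as biological, but the labels tie no array to an animal, so regions of 1 animal may be among them and p-values measure only the spread between these arrays.

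Replication begins when the origin recognition complex, Cdc6 and Cdt1 load the ring-shaped MCM helicase on DNA in G1. At the start of S phase Mcm10, Cdc45 and the GINS complex turn that ring into an active helicase, and polymerase alpha with its primase, the clamp Pcna with its loader, and polymerases delta and epsilon then make new strands. Most of these genes are transcribed at the G1/S boundary, many of them under E2F transcription factors. In the thymus, immature thymocytes divide rapidly beneath the capsule, small double-positive cells of the deeper cortex divide little, and mature cells of the medulla are largely quiescent.

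The promoter sequences below are shown because they carry the best-known binding word of the E2F family, whose targets many of these genes are. RefSeq promoters (build GRCm38.p6) were matched by symbol for 34 of the 43 genes. In the 250 bases before the start site, TTTCGCGC or TTTGGCGC was found on either strand in 7 of those 34 promoters (20.6%), against 205 of 27025 promoters of all genes (0.759%). The 7 belonged to Orc1, Mcm5, Mcm6, Rfc3, Pola1, Uhrf1 and Dnmt1. Of these, the 5 with the word in the last 160 bases before the start site are printed 5′ to 3′ on the strand of the gene, with the words or their reverse complements in capitals.
Mcm6 (chr1:128359706-128359865, minus strand): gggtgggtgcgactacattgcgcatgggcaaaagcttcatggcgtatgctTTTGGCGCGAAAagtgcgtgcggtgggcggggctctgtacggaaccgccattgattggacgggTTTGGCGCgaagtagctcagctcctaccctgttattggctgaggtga
Orc1 (chr4:108579294-108579453, plus strand): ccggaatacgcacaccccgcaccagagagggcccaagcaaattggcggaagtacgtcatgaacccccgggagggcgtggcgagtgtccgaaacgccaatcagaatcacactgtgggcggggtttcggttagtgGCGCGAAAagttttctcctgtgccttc
Rfc3 (chr5:151651209-151651368, minus strand): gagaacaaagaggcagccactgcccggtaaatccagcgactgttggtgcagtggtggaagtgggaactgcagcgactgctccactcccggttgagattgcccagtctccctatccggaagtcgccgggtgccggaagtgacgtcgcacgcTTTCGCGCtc
Mcm5 (chr8:75109349-75109508, plus strand): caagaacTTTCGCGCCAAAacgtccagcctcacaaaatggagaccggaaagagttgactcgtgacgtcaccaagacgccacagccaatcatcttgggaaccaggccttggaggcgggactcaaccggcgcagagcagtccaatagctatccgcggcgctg
Pola1 (chrX:93632156-93632315, minus strand): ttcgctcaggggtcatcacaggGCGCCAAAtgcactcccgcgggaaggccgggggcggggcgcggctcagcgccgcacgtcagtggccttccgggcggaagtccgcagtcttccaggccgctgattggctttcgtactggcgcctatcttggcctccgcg
The words overlap head to tail at 1 place in Mcm6 and 1 place in Mcm5, so that 1 capital run there reads as a word on both strands. The NF-Y-type word CCAAT lay in 22 of the 34 promoters (64.7%) against 37.5% of all promoters, and the CHR-type word TTTGAA in 6 (17.6%) against 18.3%. A match is a string of letters and not a measured binding site. Pola1, printed last, was among the genes called lower in all 3 of the main comparisons that follow, and Mcm6, Orc1, Rfc3 and Mcm5 were among those called lower in whole medulla. Of those not printed, Uhrf1 was called lower in whole medulla and Dnmt1 in none of the 3. Of all 43 genes, 27 were called lower in whole medulla. A link between the word and the calls was not tested.

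Signals below are MAS5 values on a linear scale, fold changes are differences of mean log2(signal + 26.2) with the standard error (SE) of the fit, and adjusted p-values are from limma with Benjamini-Hochberg adjustment over 13463 genes. A gene is said to have fallen or risen when its adjusted p was below 0.05, and is said to be called when its log2 fold change was also at least 1 in size. Arrays were alike within groups (Pearson correlations of 0.916 to 0.984), but 13 of them, namely numbers 1 to 5 of both whole tissues and numbers 1 to 3 of the sorted medullary thymocytes, had a wider upper tail of signal than the rest, with the brightest 0.1% of probe sets above 42000. Levels were not compared between the subregion arrays and the other arrays, because probe sets of 1 gene disagreed on that difference, as described further on. In dissected tissue, and likewise in sorted cells measured in bulk, fewer dividing cells and less RNA per cell cannot be told apart.

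The replication genes were lower in whole medulla than in whole cortex almost without exception. Of the 43, 42 fell and 27 were called lower, where 5.38% of all genes were called lower. The share of all genes that fell was 24.6%. None of the 43 was called higher, against 18.5% of all genes. Their median log2 fold change was -1.22, beside 0.106 over all genes, and they ranged from -2.39 for Ccne2 to -0.29 for Tyms. In 36 of the 43 no medullary array reached the lowest cortical array, against 10.9% of all genes. The heat map of all arrays shows the medullary columns as an almost unbroken block.

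**Figure D1:**
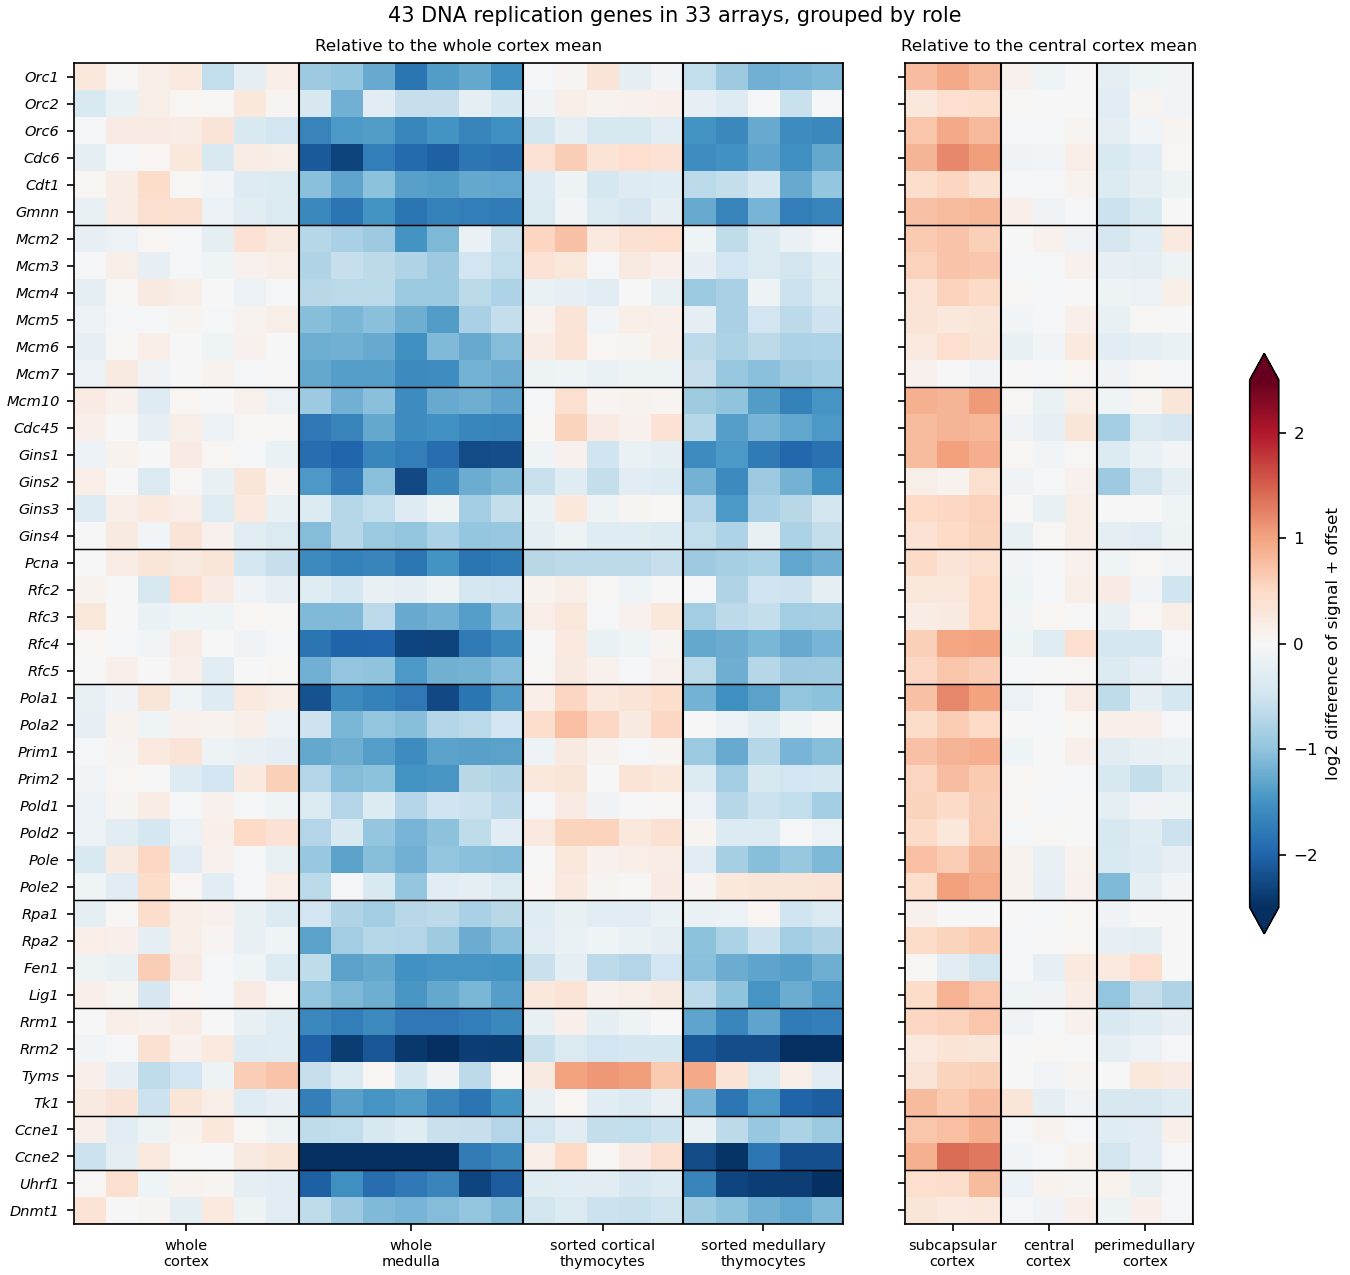
Each row is a replication gene, ordered by role and separated by lines between roles, and each column is 1 array. Colour gives log2(signal + 26.2) minus the mean of the whole cortex arrays (left) or of the central cortex arrays (right), and differences beyond 2.5 in size take the end colours. The whole medulla and sorted medullary columns lie below the cortex in nearly every row, and the subcapsular means lie above central cortex in 42 of 43 rows.

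Among the 6 origin recognition and licensing genes, 5 were called lower in medulla. Cdc6, the ATPase that recruits Cdt1 and the helicase to origins, had signals of 1459 to 2285 (median 1964) in the 7 whole cortex arrays and 359.7 to 557 (median 474) in the 7 whole medulla arrays. The ranges did not overlap, and Cdc6 changed by -1.97 (SE 0.10, adjusted p = 9.53e-19), a 3.93-fold lower level on this scale. Gmnn, which encodes geminin, the inhibitor of Cdt1 in S and G2 phase, changed by -1.70 (SE 0.11, adjusted p = 1.12e-15), and Cdt1 itself by -1.25 (SE 0.11, adjusted p = 2.90e-12). Orc6 (-1.55) and Orc1 (-1.31), subunits of the origin recognition complex, were also called, while Orc2 (-0.52, adjusted p = 0.000181) fell by less than the minimum fold.

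All 6 subunits of the MCM helicase fell in medulla, but only 3 were called, and these calls were the most dependent on scaling. Mcm7 read 15695 to 20471 (median 17279) in whole cortex and 5795 to 7746 (median 6755) in whole medulla and changed by -1.37 (SE 0.08, adjusted p = 2.15e-17). Mcm6 changed by -1.24 and Mcm5 by -1.04. Mcm2, Mcm4 and Mcm3 lay between -0.82 and -0.68. After quantile normalization the 3 called subunits stood at -0.99, -0.97 and -0.78, in the order Mcm7, Mcm6 and Mcm5, so all still fell but none was called. The choice of probe set also moved this count. Mcm5 changed by -0.93 as the mean of its probe sets, and Mcm2 by -1.15, and was called, when only plain-suffix probe sets were used, that is those without the suffix letters by which the maker marks probe sets that may match more than 1 transcript.

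Of the 6 genes that activate the helicase, 4 were called lower. Gins1, a subunit of the GINS complex, had signals of 1761 to 2263 (median 1961) in whole cortex and 396 to 618 (median 507) in whole medulla, which is a difference of -1.94 (SE 0.10, adjusted p = 1.25e-18). The ranges of the 2 tissues were well apart. Cdc45, the partner of GINS in the active helicase, changed by -1.59 (SE 0.11, adjusted p = 1.11e-14), Gins2 by -1.501 and Mcm10 by -1.22. Gins4 (-0.92) and Gins3 (-0.51) fell by less than the minimum fold, so the 4 subunits of 1 complex spread over -1.94 to -0.51. The calls of Cdc45 and Mcm10 rested on the brightest probe set: as means of all their probe sets they changed by -0.66 and -0.80. The other probe sets were dim. Their mean signals in whole cortex were 128 for Cdc45 and 97.8 and 74.3 for Mcm10, against 989 and 954 for the probe sets used. These means therefore weigh dim probe sets equally with bright ones.

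For the sliding clamp and its loader, 4 of 5 genes were called lower. Pcna, the ring that holds polymerases on DNA, ranged over 25872 to 47796 (median 43792) in whole cortex and 10904 to 13576 (median 11937) in whole medulla and changed by -1.69 (SE 0.11, adjusted p = 1.26e-15). Its 7 cortical values fell in 2 sets, with 38297 to 47796 in the 5 arrays that have the wide upper tail and 28438 and 25872 in the other 2. Rfc4 had the largest change of the loader subunits, -1.97 (SE 0.11, adjusted p = 8.73e-18), from 3389 ± 230.1 (mean ± SD, n = 7) to 855 ± 161 (n = 7). Rfc5 (-1.15) and Rfc3 (-1.10) were called, and Rfc2 (-0.32, adjusted p = 0.0149) fell by less.

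Of the 8 polymerase and primase genes 4 were called lower, and subunits of 1 complex differed. The catalytic subunit of polymerase alpha, Pola1, had signals of 1212 to 1899 (median 1425) in whole cortex and 299 to 557 (median 425) in whole medulla, a change of -1.82 (SE 0.12, adjusted p = 3.34e-15). Its partner Pola2 fell by less than the minimum fold (-0.80). Both primase subunits were called, Prim1 at -1.36 (SE 0.09, adjusted p = 1.12e-15) and Prim2 at -1.03, the latter close enough to the minimum fold that leaving out any of 4 single arrays ended its call (-0.93 to -0.99). Pole, the catalytic subunit of the leading-strand polymerase epsilon, changed by -1.10. Its subunit Pole2 changed by only -0.42 (SE 0.14, adjusted p = 0.00781), and the delta subunits Pold1 and Pold2 by -0.55 and -0.74.

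Lig1, the ligase that joins Okazaki fragments, and Fen1, the nuclease that trims them, were both called lower in medulla. Lig1 had signals of 2085 to 3209 (median 2882) against 1006 to 1413 (median 1176) and changed by -1.23 (SE 0.11, adjusted p = 2.84e-12). Fen1 changed by -1.32 (SE 0.13, adjusted p = 3.87e-11). Rpa1 and Rpa2, subunits of the single-strand binding protein, fell by less, at -0.70 and -0.98. Among genes for deoxynucleotide supply, Rrm2, the regulated subunit of ribonucleotide reductase, had signals of 16177 to 26294 (median 19668) in cortex and 3534 to 4935 (median 3873) in medulla and changed by -2.31 (SE 0.10, adjusted p = 1.48e-20), 4.96-fold on this scale. Its partner Rrm1 changed by -1.69 and thymidine kinase Tk1 by -1.56. Tyms, which encodes thymidylate synthase, was the 1 gene of the 43 that did not pass the test, at -0.29 (SE 0.20, adjusted p = 0.213). Its signals of 100.1 to 295 (median 154) in cortex and 99 to 178 (median 128) in medulla overlapped. They were low: the median signal of all probe sets was 93.3 to 118 in the cortical and 128 to 163 in the medullary arrays. A change of Tyms could therefore be missed on this probe set.

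The 2 cyclins that drive G1/S behaved unequally. Ccne2, with signals of 1137 to 2053 (median 1707) in whole cortex and 196 to 525 (median 260.2) in whole medulla, showed the largest change of all 43 genes, -2.39 (SE 0.16, adjusted p = 2.01e-15). That is 5.23-fold on this scale, and no arrays of the 2 tissues overlapped. Ccne1 changed by -0.55 (SE 0.10, adjusted p = 2.10e-05). The same held for the pair that copies DNA methylation onto the new strand: Uhrf1, which recognises hemimethylated DNA, changed by -1.90 (SE 0.12, adjusted p = 4.75e-16), and the methyltransferase Dnmt1 by -0.995, just short of the minimum fold. Dnmt1 was called when any of 6 single arrays was left out (-1.002 to -1.06).

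Cell type markers also differed between the 2 tissues, where 5.38% of all genes were called lower and 18.5% higher. Of 7 double-positive thymocyte markers 6 were called lower in medulla, of 5 mature thymocyte markers all were called higher, and so were 5 of 5 medullary epithelial and 6 of 6 dendritic cell markers. Other lists were mixed or partial. Of 6 double-negative thymocyte markers 2 were called higher and 1 lower, and of 7 macrophage markers 3 higher and 1 lower. Of 7 cortical epithelial markers 5 were called lower. Called higher were 5 of 6 mesenchymal, 2 of 4 B cell and 2 of 4 endothelial markers. The summed signal of the dendritic cell markers was 881 to 1211 in cortex and 24246 to 43306 in medulla, and that of the medullary epithelial markers 639.6 to 1064 and 16110.2 to 18247. Between the 2 thymocyte gates none of the 5 medullary epithelial and 1 of the 6 dendritic cell markers was called, whereas 5 of the 7 double-positive markers were called lower and all 5 mature markers higher. Of the 6 double-negative markers 1 was called higher and 2 lower there. The part of these markers in the difference of the replication genes was not tested.

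In sorted medullary thymocytes 39 of the 43 genes were below sorted cortical thymocytes at the test's threshold and 16 were called lower, where 6.28% of all genes were called lower and 19.1% fell. None was called higher (7.67% of all genes). The median log2 fold change was -0.84, beside 0.07 over all genes. In 34 of the 43 the arrays of the 2 gates did not overlap, against 16.3% of all genes. All 16 genes were also called lower in whole medulla, which shares no array with the sorted cells. The 11 genes called in tissue but not here also fell in thymocytes, by less than the minimum fold.

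Ccne2 again showed the largest change. Its signals were 1854, 2376, 1714, 1935 and 2200.1 in the cortical gate and 333, 284, 457, 343 and 341 in the medullary gate, a change of -2.44 (SE 0.19, adjusted p = 1.90e-13). Every medullary value lay below every cortical value. Uhrf1 followed, at 4986, 5099, 5074, 4589 and 4828 against 1933, 1241, 1185, 1185 and 954, -1.94 (SE 0.14, adjusted p = 4.85e-14). Rrm2 read 13614, 15667, 14347, 15098 and 14789.6 against 4662, 4305, 4321, 3148 and 3158, -1.92 (SE 0.12, adjusted p = 5.62e-16). Licensing was again prominent, with Cdc6 at 2465, 2931, 2426, 2571 and 2454 in cortical and 636, 651, 747, 643 and 772 in medullary cells, -1.86 (SE 0.12, adjusted p = 1.00e-15). The gates were wide apart for all 4 genes. Orc1, with -1.01, was the marginal call of the group, ended by leaving out any of 5 single arrays (-0.93 to -0.99) or by taking the mean of its probe sets (-0.85). Cdt1 stood apart from its licensing partners, with 5741, 6599, 5262, 5762 and 5787 against 4511, 4763, 5286, 2972 and 3638, overlapping arrays and a change of -0.48 (SE 0.13, adjusted p = 0.00254).

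None of the 6 MCM subunits was called between thymocyte gates, although all 6 fell, from -0.89 for Mcm6 to -0.38 for Mcm4. Mcm7 had signals of 16034, 16284, 15616, 15978 and 16082 against 11654, 9062, 8476, 9257 and 9699, which did not overlap, and changed by -0.74 (SE 0.09, adjusted p = 1.80e-08). In helicase activation Gins1 (-1.54), Cdc45 (-1.45) and Mcm10 (-1.41) were called. On other probe sets these calls differed: as means of their probe sets Cdc45 (-0.74) and Mcm10 (-0.69) were not called and Gins2 (-1.05) was, and with plain-suffix probe sets Mcm10 did not pass the test (-0.12, adjusted p = 0.768). The plain-suffix probe sets of Mcm10 are the dim ones named above. Rfc4 (-1.22) was the only clamp or loader gene called, and Pola1 (-1.56) and Prim1 (-1.07) the only polymerase genes, with Prim2 added (-1.07) by plain-suffix probe sets. Lig1 changed by -1.37 (SE 0.13, adjusted p = 2.06e-11), Rrm1 by -1.46 and Tk1 by -1.51.

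The 4 genes that did not pass the test in thymocytes were Orc2 (-0.31), Ccne1 (-0.19), Rpa1 (0.01) and Pole2 (0.13). Pole2, the second subunit of polymerase epsilon, read 1359.7, 1559, 1370.4, 1338 and 1508 in cortical and 1377, 1575, 1625, 1629.5 and 1638 in medullary cells, so the medullary cells were not below the cortical ones. Rpa1 read 10792, 11707, 10892, 11065 and 11887 against 11833, 11894, 13735, 9408 and 10330.3, with the 2 gates overlapping. Across the 43 genes the tissue and thymocyte differences ran together (Pearson r = 0.828, Spearman rho = 0.804 over 43 genes, which share the arrays and are not independent replicates). The plot of the 2 differences shows most points below the diagonal.

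**Figure D2:**
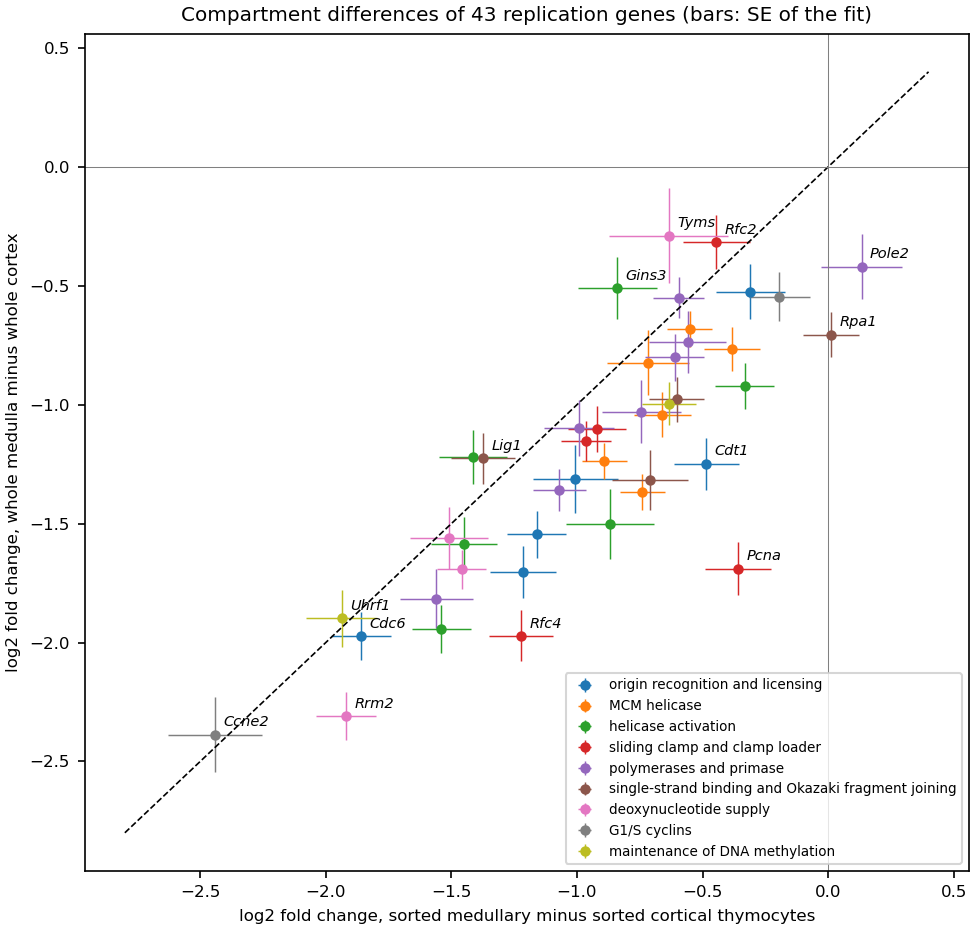
Each point is a replication gene, coloured by role, with the log2 fold change between sorted medullary and cortical thymocytes on the horizontal axis and between whole medulla and whole cortex on the vertical axis. Bars are SE of the fit and the dashed line marks equal differences. Pcna lies farthest from the line, at -0.36 and -1.69, and Ccne2, Cdc6, Uhrf1 and Lig1 lie near it.

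The difference between those 2 differences was tested as an interaction. Of the 43 genes, 16 had a larger drop in tissue at an adjusted p below 0.05, where 12.4% of all genes had one, and the median was -0.29. Only Pcna was called (2.22% of all genes), at -1.33 (SE 0.17, adjusted p = 1.29e-07). In sorted cells Pcna read 23789.8, 24619.8, 24456, 24508 and 25655 in the cortical gate and 20389, 21709.5, 22207, 15644 and 16814 in the medullary gate, a change of -0.36 (SE 0.13, adjusted p = 0.0262). The first 3 medullary values, from arrays with the wide upper tail, were higher than the last 2. Without the 13 arrays of that kind the Pcna interaction was -0.69 (adjusted p = 1.7e-05), and it was -0.27 (adjusted p = 0.0103) after quantile normalization. Both passed the test but fell short of the minimum fold, so neither was called. By quantile normalization Pcna changed by -1.09 in tissue and -0.82 in thymocytes. MCM genes were 4 of the 16, with Mcm7 at -0.63, and the replication genes with the next largest terms were Cdt1 (-0.76), Rfc4 (-0.75) and Rpa1 (-0.72). Ccne2 (0.05), Uhrf1 (0.04), Tk1 (-0.05) and Cdc6 (-0.11) had terms within their SE.

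**Figure D3:**
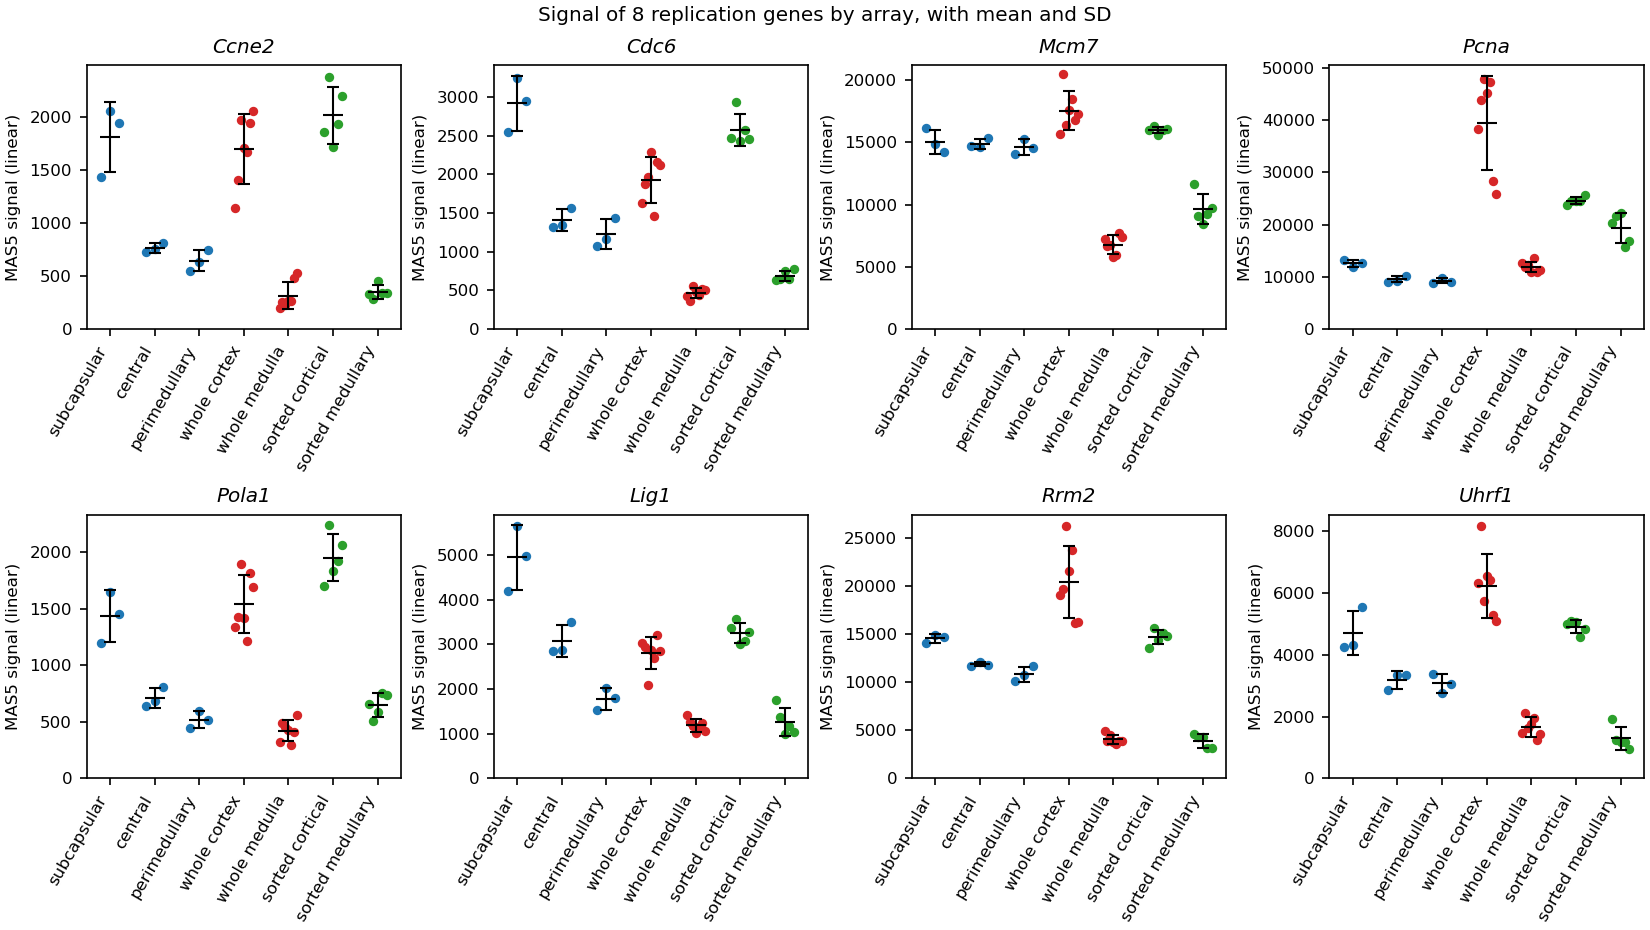
MAS5 signal on a linear axis that starts at 0 for 8 replication genes, with 1 point per array and the mean and SD of each group as bars. Colours separate subregions (blue), whole tissue (red) and sorted thymocytes (green). Whole medulla lies below whole cortex and sorted medullary below sorted cortical thymocytes in each panel, and the 3 subregions descend from subcapsular to perimedullary cortex most clearly for Lig1, while Mcm7 is flat.

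Within the cortex the replication genes were highest beneath the capsule. The group means descended from subcapsular through central to perimedullary cortex for 38 of the 43 genes, an order that 26.4% of all genes had. For 14 of them no arrays of neighbouring regions overlapped in that order, against 4.46% of all genes. Another 4 genes, Mcm10, Pola2, Rfc3 and Tyms, were lowest in central cortex (13.6% of all genes), and the means of Fen1 alone ascended inward (22.7%). The 3 pairwise comparisons share arrays and are given side by side.

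Most of the descent lay between subcapsular and central cortex. There 26 of the 43 genes were higher in subcapsular cortex at the test's threshold, where 4.4% of all genes were, and 2 were called, where 0.847% of all genes were. In 38 genes the 3 subcapsular arrays all lay above the 3 central arrays (21.0% of all genes). The median log2 fold change was 0.56, beside 0.01 over all genes. From central to perimedullary cortex only Lig1 passed the test (0.245% of all genes fell there), none was called (0.0371%), and the median was -0.15. In 15 genes the perimedullary arrays all lay below the central ones (14.8% of all genes). Between the 2 ends 32 genes were lower in perimedullary cortex (9.0% of all genes) and 13 were called lower (1.66%), 40 had arrays that did not overlap (24.3%), and the median was -0.81, beside 0.00 over all genes.

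**Figure D4:**
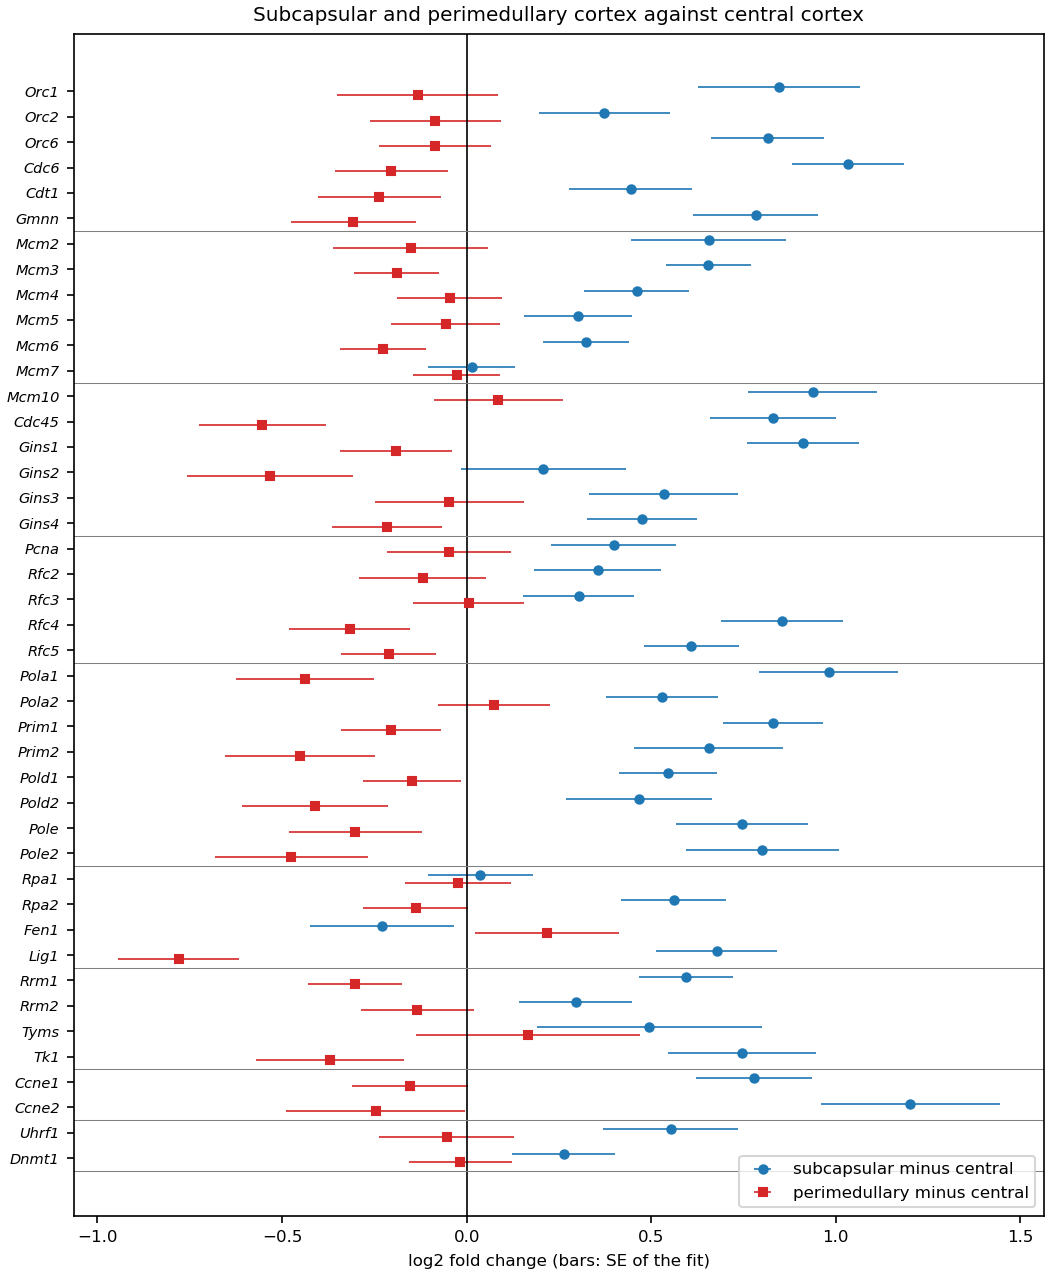
Log2 fold changes of subcapsular (blue circles) and perimedullary cortex (red squares) against central cortex for each of the 43 genes, ordered by role, with SE of the fit from 3 arrays per region. The blue points lie right of 0 for 42 genes. The red points lie closer to 0, and Lig1, at -0.78, is the farthest to the left.

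The 2 genes called between subcapsular and central cortex were Cdc6 and Ccne2. Cdc6 read 2550.3, 3246 and 2945 in subcapsular, 1315, 1343 and 1568 in central and 1072, 1165 and 1439 in perimedullary cortex. The subcapsular arrays were all above the rest and the other 2 regions overlapped, with 1.03 (SE 0.15, adjusted p = 2.59e-05) for subcapsular minus central and -0.20 (SE 0.15, adjusted p = 0.791) for perimedullary minus central. Ccne2 read 1435, 2051 and 1939.7, then 725, 751 and 813, then 549.5, 635 and 746, with 1.20 (SE 0.24, adjusted p = 0.00132) for the outer step. The count of 2 is sensitive to single arrays: it was 1 without subcapsular array 2 or without central array 1, which ended the call of Cdc6 (0.95 and 0.99), and 5 without central array 3, which added Mcm10 (1.01), Rfc4 (1.07) and Pola1 (1.08).

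Lig1 was the gene with the longest descent. Its signals were 4198, 5646 and 4987 in subcapsular, 2858, 2868 and 3495 in central and 1524, 2016 and 1807 in perimedullary cortex, with no overlap at either step. The outer step was 0.68 (SE 0.16, adjusted p = 0.00709), the inner step -0.78 (SE 0.16, adjusted p = 0.00321), and the ends differed by -1.46 (SE 0.16, adjusted p = 3.90e-08). Pola1 read 1195, 1653 and 1456, then 641, 682 and 811, then 445, 599 and 515, and its ends differed by -1.42 (SE 0.19, adjusted p = 9.22e-07). Cdc45 read 1101, 1152 and 1134, then 583, 538 and 772, then 329.6, 477 and 459, with -1.38 (SE 0.17, adjusted p = 2.68e-07) between the ends, but the mean of its probe sets changed by -0.82 (adjusted p = 0.0117) and was not called. On the probe sets used these 3 genes had no overlap at either step, though only Lig1 passed the test in the inner one.

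Of the polymerase genes 5 of 8 were called lower between the ends of the cortex. Beside Pola1 they were Pole2 (-1.28), Prim2 (-1.11), Pole (-1.05) and Prim1 (-1.04). Pole2 was called here but in neither medullary comparison, and it rests on little: its perimedullary signals were 623, 1146 and 1293, without the first of which the change was -0.96, and the mean of its 2 probe sets changed by -0.36 (adjusted p = 0.192). Prim2 was not called as the mean of its probe sets (-0.97) or on its plain-suffix probe set (-0.84). Licensing gave Cdc6 (-1.24) and Gmnn (-1.09). Gmnn read 10486, 10915 and 11189.8 in subcapsular and 4329.6, 4863 and 6244 in perimedullary cortex, and without perimedullary array 1 it changed by -0.98. Helicase activation gave Cdc45 and Gins1 (-1.10), the loader Rfc4 (-1.17), nucleotide supply Tk1 (-1.12), and the cyclins Ccne2 (-1.45 (SE 0.24, adjusted p = 3.87e-05)). Gins1 stood at -0.91, not called, as the mean of its probe sets. Prim1 and Pole also lay near the minimum fold, at -0.995 and -0.997 without subcapsular array 3.

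Mcm7 and Rpa1 showed no descent that the arrays could resolve. Mcm7 read 16123, 14858 and 14217 in subcapsular, 14737, 14608 and 15368 in central and 14054, 15269 and 14567 in perimedullary cortex, -0.04 (SE 0.12, adjusted p = 0.894) between the ends. Rpa1 read 14840.1, 13731 and 13729.6, then 13549.9, 13421 and 14231, then 12932, 13899 and 13721, -0.06 (SE 0.14, adjusted p = 0.861). The central and perimedullary arrays overlapped for both genes, and so did the subcapsular and central arrays. Both genes lay near the top of the signal range, since only 0.1% of probe sets exceeded 16919 to 19984 in the subregion arrays. Any bearing of this brightness on the flat readings was not tested. On the probe sets used, Rrm2 changed by -0.43 (SE 0.15, adjusted p = 0.0523) between the ends of the cortex and Pcna by -0.45 (SE 0.17, adjusted p = 0.0679). No MCM subunit was called on those probe sets, where Mcm3 went from 5098, 5665 and 5489.6 to 2987, 2896 and 3136, a change of -0.84 (SE 0.12, adjusted p = 1.60e-06). With plain-suffix probe sets 6 more genes were called between the ends: Rfc3 (-1.29), Mcm5 (-1.13), Rrm2 (-1.11), Mcm3 (-1.10), Gins2 (-1.03) and Cdt1 (-1.02). The absence of MCM and Rrm2 calls here therefore holds for the brightest probe set of each gene and not for every probe set.

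Fen1 ran against the rest on the probe set used, and its second probe set did not. The first read 42974, 34520.1 and 30637 in subcapsular, 40742, 36389 and 49414 in central and 49598, 55889 and 41536 in perimedullary cortex, with overlap throughout and 0.45 (SE 0.20, adjusted p = 0.124) between the ends. The second read 892, 894 and 1028, then 602, 602 and 620.4, then 503, 475 and 487, a descent without overlap and a change of -0.90 (adjusted p = 1.53e-05 over all probe sets). The first lay above the signal that only 0.1% of probe sets exceeded in these arrays (16919 to 19984). Over both probe sets the direction of Fen1 within the cortex is therefore unsettled, while both fell in whole medulla, by -1.32 and -1.11.

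The probe sets of a gene gave the same direction in most cases. Of the 86 probe sets, 82 were lower in medulla, 79 in medullary thymocytes and 82 in perimedullary than in subcapsular cortex. They gave quite different answers on how the 9 subregion arrays compare with the 7 whole cortex arrays. There 20 of the 86 were over 1 log2 unit apart, 4 upward and 16 downward, and among 31 genes with at least 2 probe sets, 20 had probe sets that disagreed by over 1 and 8 by over 2. The widest was Fen1, where the 2 probe sets differed from whole cortex by 3.11 and -1.75. Next came Rrm1, where the probe set used differed by -0.01 and another by -4.08. That second probe set read 179, 231 and 209 in subcapsular cortex against 2839.7 to 4084 in whole cortex. Rpa2 had a probe set at 83.9 to 126 in subcapsular cortex and 881 to 1572 in whole cortex. The cause was not tested, and no statement here sets a subregion level against a whole-tissue or sorted level.

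**Figure D5:**
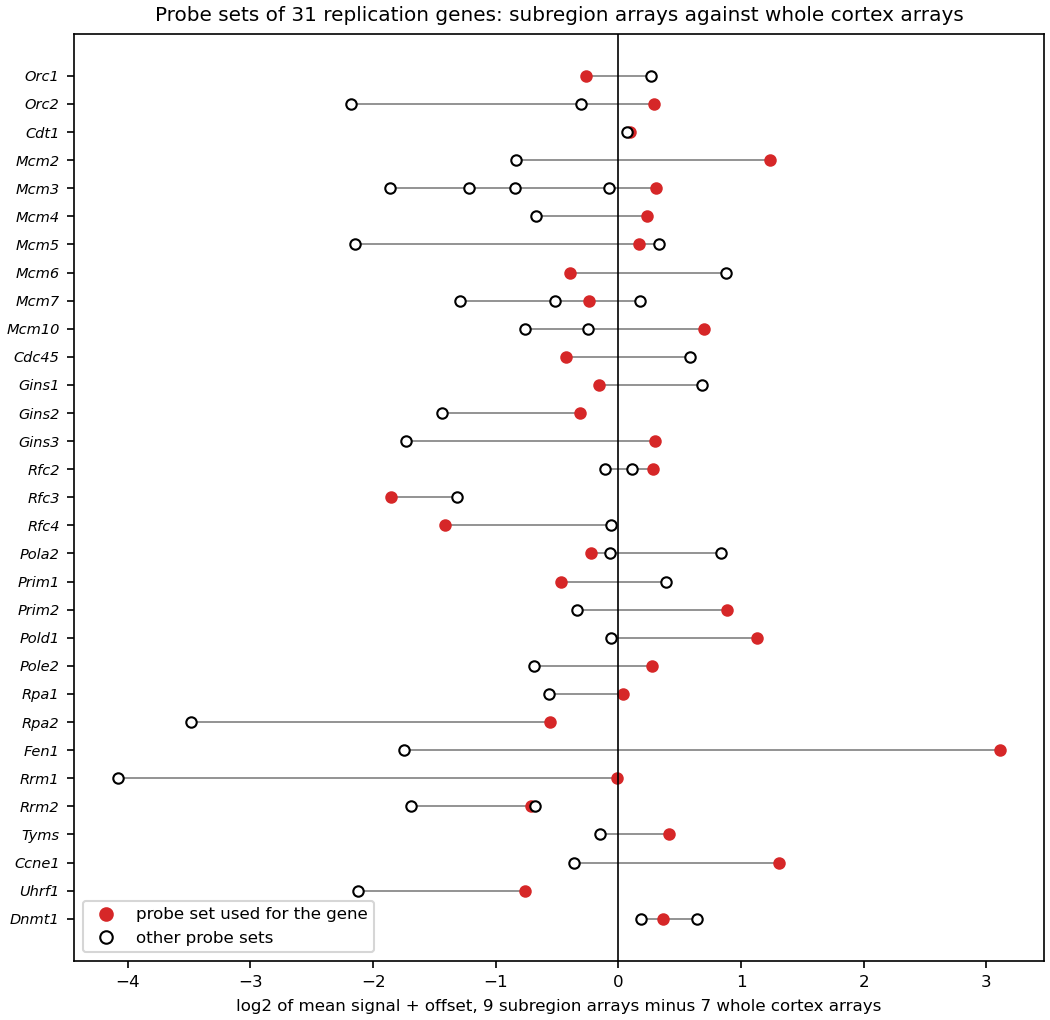
Each point is a probe set of one of 31 replication genes with at least 2 probe sets, placed by log2(mean signal + 26.2) of the 9 subregion arrays minus that of the 7 whole cortex arrays. Filled points are the probe sets used for the genes, open points the others, and lines join probe sets of a gene. Points of 1 gene lie up to several log2 units apart, most of all for Fen1, Rrm1 and Rpa2.

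Across the 3 comparisons without shared arrays, 10 genes were called lower in all: Cdc6 and Gmnn of licensing, Cdc45 and Gins1 of helicase activation, Rfc4, Pola1, Prim1, Lig1, Tk1 and Ccne2. Of these, Cdc45 was called in none of the 3 as the mean of its probe sets, and Gins1 not between the ends of the cortex. For both genes that mean takes in a probe set much dimmer than the one used. Another 15 genes were called in none: Orc2, Mcm2, Mcm3, Mcm4, Gins3, Gins4, Rfc2, Pola2, Pold1, Pold2, Rpa1, Rpa2, Tyms, Ccne1 and Dnmt1. Some of these lay near a call: in tissue Mcm2 was called with plain-suffix probe sets (-1.15), Rpa2 as the mean of its probe sets (-1.25) or without any of 4 single arrays (-1.01 to -1.02), and Dnmt1 without any of 6, and Mcm3 was called between the ends of the cortex with plain-suffix probe sets (-1.10). Without perimedullary array 3, Mcm2 (-1.0015) and Ccne1 (-1.07) were called between those ends as well. Most roles contributed to both sets, so paralogs and partners in 1 complex could fall in different sets. Examples were Ccne2 and Ccne1, Gins1 and Gins3, and Pola1 and Pola2. Differences between genes were not tested. The size of the drop within the cortex followed the compartment differences only loosely over the 43 genes, with r = 0.336 (rho = 0.360) against tissue and r = 0.460 (rho = 0.483) against thymocytes.

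Markers of other cells also differed along the cortex. From subcapsular to perimedullary cortex, all 5 mature thymocyte markers were called higher, with summed signals of 1006 to 1056, 2016 to 2315 and 10604 to 11634 in subcapsular, central and perimedullary cortex. Dendritic cell markers were called higher in 4 of 6 and medullary epithelial markers in 3 of 5, and the summed signals in the subcapsular and the perimedullary arrays were 546 to 681 and 2724 to 3218 for the former and 735 to 904 and 1417 to 1502 for the latter. Mesenchymal markers were called lower in 2 of 6, with sums of 3558 to 4290.4 in subcapsular and 1495 to 1689 in perimedullary cortex. Of all 13463 genes, 962 were higher and 1211 lower in perimedullary cortex at the test's threshold, before the minimum fold. With it, 1.66% of all genes were called lower. In an alternative fit with the replicate number as a block, 408 of the 13463 genes were called higher and 229 lower. Of double-negative markers, Il2ra (-1.47) and Ptcra (-1.25) were called lower and Il7r (1.30) higher. None of the 7 double-positive markers was called, and their sums of 51739 to 57335 and 56338 to 57353 overlapped. The part of these markers in the descent of the replication genes was not tested.

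On the probe sets used, no replication gene was called between tissue and sorted cells of the same compartment. Of all 86 probe sets, 3 were called higher and 2 lower in whole cortex than in its sorted cells. In whole medulla 3 were called lower and 0 higher than in its sorted cells. Between whole cortex and sorted cortical thymocytes none of the 43 genes was called (9.57% of all genes were called higher and 1.51% lower), 9 were higher and 6 lower at the test's threshold (25.5% and 15.9% of all genes), and the median was -0.02. Between whole medulla and sorted medullary thymocytes none was called (19.3% higher, 1.2% lower). Uhrf1 alone was higher at the test's threshold (0.37 (SE 0.13, adjusted p = 0.0194)), where 30.1% of all genes were. Of the 43 genes 20 were lower, a larger share than the 20.2% of all genes, and the median was -0.29. Pcna was higher in whole cortex (0.65) and lower in whole medulla (-0.68) than in the matching cells. Tissue RNA was made with RNAqueous Micro kits and thymocyte RNA with RNeasy Mini kits, and in these 2 comparisons the kit cannot be told apart from the kind of material.

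Other genes of the pathway were listed with earlier results of these data known. Of 23 further replisome and origin genes 7 were called lower in whole medulla, 6 in medullary thymocytes and 1 (Pole3, -1.22) in perimedullary against subcapsular cortex, and none was called higher. Rpa3 (-1.93 in tissue), the third subunit of the single-strand binding protein, and Tipin (-1.78), a fork protection factor, led them in tissue, while Pold4 (0.88 in tissue, 0.86 in thymocytes), the small subunit of polymerase delta, rose. Of 7 chromatin genes coupled to replication, 5, 1 and 1 were called lower in the same 3 comparisons. Over all genes 5.38%, 6.28% and 1.66% were called lower in these 3 comparisons. Of 11 other nucleotide supply genes 3 were called lower and 1 higher in tissue, and 2 lower and 1 higher in thymocytes. Samhd1, which degrades deoxynucleotides, was called higher in all 3, by 3.49, 4.76 and 2.59, the opposite of Rrm2 in the first 2. Of 24 genes that control S phase entry, 8 were called lower and 3 higher in tissue, and 10 lower and 1 higher in thymocytes. E2f8, E2f2, Fbxo5, Skp2 and Ccna2 were among those called lower in both medullary comparisons, and Ccnd2, a G1 cyclin, was called higher in both (3.49 and 4.70). Of 19 mitosis genes all 19 were called lower in medulla and in medullary thymocytes, with a median of -2.09 in each, and 15 in perimedullary against subcapsular cortex, with a median of -1.13. The medians of the 43 replication genes in the same comparisons, -1.22, -0.84 and -0.81, were smaller, and that gap was not tested.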

How the data were processed

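Thymus RNA was hybridised to 33 Affymetrix arrays (7 groups by title). The authors deposited MAS5 signal intensity, not log-transformed, for each probe set, made with Affymetrix Expression Console 1.0 per the submitters' processing notes. Background settings are not given in the sources used here. The number of arrays limits the precision.

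From these values log2(signal + 26.2) was computed, the offset being a typical array's 25th percentile of signal (the median of the 33). Of 45037 probe sets, 34945 carry 1 gene symbol, 932 several and 9160 none (34741 looked up in RefSeq, 0 changed). Probe sets above the array median in at least 3 arrays were kept (30045, 24883 with 1 symbol), and a gene was its probe set of highest mean. limma 3.58.1 (R 4.3.3) fitted 7 group means (26 residual degrees of freedom) with a trended spread; tests are 2-sided, and a call needs adjusted p below 0.05 and a log2 fold change of at least 1. On simulated data with 200 changed genes the fit recovered 197 for whole medulla against whole cortex, by adjusted p and direction without the fold minimum. That figure holds for groups of 7 arrays and not for the subregions, which have 3 each. The members, lists and rule for named genes were chosen with earlier results of these data known. Genes named in each role are those with the highest mean signal or the largest difference between medulla and cortex or between the ends of the cortex, with genes that depart from their role. Listed genes that lacked such a probe set were not analysed here. Alternatives tried were quantile normalization, 2 other filters, a smaller offset, the mean of probe sets, plain-suffix probe sets only, no fold minimum, only the groups compared, array weights, a replicate block, and leaving out each array; the splits by upper tail were chosen after seeing the data. Replicate numbers gave no clear pairing of arrays, and the main fit used none.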

Additional observations from a re-analysis of the deposited data

Results flagged for a closer look

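In groups of 4 to 10 arrays, 172 sets of a gene and a group were examined for 1 array that stands apart from the rest, and 10 sets in 8 genes had one, where chance flags about 1 in 20. Orc2 read 731.2 in sorted cortical array 1, below the others at 827.6 to 866.7, and 324.3 in whole medulla array 2, below 512.1 to 665. Mcm6 read 3025 in whole medulla array 4, below 3636 to 4141, and Mcm10 read 1261 in sorted cortical array 2, above 929 to 1009.6. Rfc5 read 1727 in whole cortex array 5, below 2110.8 to 2329. Prim2 read 1154 in sorted cortical array 3, below 1396 to 1468, and 617.4 in sorted medullary array 2, below 821 to 900.2. Pole2 read 1377 in sorted medullary array 1, below 1575 to 1638. Fen1 read 3071 in whole medulla array 1, above 1652 to 1953, and Lig1 read 2085 in whole cortex array 3, below 2690.2 to 3209.

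Pcna differed between tissue and thymocytes in its compartment change, by an interaction of -1.33 on the log2 scale, which ended as a call without the arrays of wide upper tail.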

How the results depend on the processing

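No called value changed sign under any alternative run. Without the fold minimum, the genes that fell numbered 42 in whole medulla, 39 in medullary thymocytes, 16 in the interaction, 1 in perimedullary against central and 32 against subcapsular cortex, and 26 were higher in subcapsular than central cortex. Whole cortex against its sorted cells then gave 9 higher and 6 lower, and whole medulla 1 higher and 20 lower. The interaction call of Pcna was lost, leaving 0, under quantile normalization and within the arrays without a wide upper tail. The 2 calls between subcapsular and central cortex became 1 under quantile normalization and 1 with plain-suffix probe sets (38 of the 43 genes in the fit). The mean of probe sets kept 24 of the 27 lower calls in whole medulla, 13 of 16 in medullary thymocytes and 9 of 13 between the ends of the cortex. Plain-suffix probe sets kept 22 of 23, 14 of 15 and 10 of 11 of the calls on genes in that fit, with 23, 16 and 16 called in all. Leaving out single arrays gave 25 to 28 lower calls in whole medulla, 15 to 18 in medullary thymocytes, 1 in the interaction, 11 to 16 between the ends of the cortex and 1 to 5 higher calls in subcapsular against central cortex. Quantile normalization moved the median of all genes between whole medulla and whole cortex from 0.106 to -0.03, beside -1.22 and -1.16 for the replication genes, which keep a lower level relative to it. Arrays with the same replicate number in 2 groups deviated together by correlations of -0.08 to 0.256, so the numbers give no clear pairing. In whole medulla and whole cortex, 4 of 7 such pairs were over 0.1, and 3 medullary arrays correlated best with their own number. In subcapsular and central cortex each of 3 arrays correlated best with its own number (0.007 to 0.013). A shared source was not tested. With the replicate block the lower calls were 27, 16, 1 and 13 in whole medulla, medullary thymocytes, the interaction and the ends of the cortex. The number of arrays, 3 per subregion, limits what could be resolved there.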
